A study of Homo sapiens with 8 samples.

Results

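Aminoacyl-tRNA synthetases are the enzymes that join each amino acid to its tRNA, and 35 of their genes were examined among the 58302 genes of the count table. The genes were found by the GENCODE 44 symbol of their Ensembl identifiers, and all 35 had a row in the table. Of these, 19 encode the cytosolic enzymes and 16 the mitochondrial enzymes. The RNA came from A549, a human lung adenocarcinoma epithelial cell line, transfected either with an siRNA against APEX1, the gene of the DNA repair endonuclease APE1 (4 libraries labelled siAPEX1), or with a scrambled control siRNA (4 libraries labelled siCTRL). The libraries were made from total RNA with a small-RNA kit that tails the RNA in place of ligating an adapter, with changes to capture primary miRNA transcripts, so messenger RNA was a minor part of the reads. The study calls the replicates of a group biological, and the p-values measure the spread between these libraries.

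A synthetase selects its amino acid, activates it with ATP and transfers it to the matching tRNA, which then serves the ribosome. The cytosol and the mitochondrion mostly use separate enzymes encoded by separate nuclear genes, and GARS1 and KARS1 each supply both compartments. Several cytosolic enzymes are bound together with scaffold proteins in the multisynthetase complex. Many cytosolic synthetase genes are targets of ATF4, the transcription factor of the amino acid and integrated stress responses, which binds composite sites for C/EBP and ATF factors. Tryptophanyl-tRNA synthetase, encoded by WARS1, is also known as an interferon-inducible gene.

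Since ATF4-bound sites carry the letters TGATGNAA, the promoter windows of the members were searched for them, and the matches are shown here because the ATF4-responsive genes are set beside the other members in what follows. The windows came from RefSeq (GRCh38.p14), ran from 250 bases before to 50 bases after each transcript start that the table lists for a gene, and were searched on both strands (TTNCATCA is the other strand). An entry was present for 30 of the 35 members, and 8 of these 30 held a match. The letters occurred in 3.62% of the 35116 promoter windows and in at least 1 window of 4.46% of the 27305 genes of the table. Of the 16 cytosolic genes with an entry 7 had a match, and all 7 belong to the list of 11 ATF4-responsive synthetases, of which 10 had an entry. Among the 14 mitochondrial genes with an entry, YARS2 held a match. Each match is printed 5′ to 3′ on the strand of the gene with 11 bases on either side, and the capitals mark the 8 motif letters.
AARS1, chr16:70289675-70289704, minus strand: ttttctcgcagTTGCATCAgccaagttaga
CARS1, chr11:3057407-3057436, minus strand: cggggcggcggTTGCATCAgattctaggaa
GARS1, chr7:30594834-30594863, plus strand: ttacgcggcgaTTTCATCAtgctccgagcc
IARS1, chr9:92293692-92293721, minus strand: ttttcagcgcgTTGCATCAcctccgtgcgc
MARS1, chr12:57488053-57488082, plus strand: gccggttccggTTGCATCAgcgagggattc
NARS1, chr18:57621804-57621833, minus strand: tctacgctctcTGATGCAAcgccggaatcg
TARS1, chr5:33440956-33440985, plus strand: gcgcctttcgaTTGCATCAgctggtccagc
YARS2, chr12:32756076-32756105, minus strand: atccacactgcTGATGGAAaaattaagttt
Of the 8 matches, 6 carry the same 8 letters, TTGCATCA or its reverse complement TGATGCAA. The RefSeq start behind each match lay 0 to 377 bases inside the GENCODE gene, except for GARS1 (14345 bases) and MARS1 (12623 bases), whose GENCODE genes extend further upstream. A match is a description of these letters and not evidence of binding.

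The total count per library ran from 1639796 to 1949886 in the libraries labelled siCTRL and from 1348386 to 1619500 in those labelled siAPEX1. Every library labelled siAPEX1 was smaller than every library labelled siCTRL, so depth and condition cannot be told apart. APEX1 had 51, 61, 64 and 47 counts in the siCTRL libraries and 21150, 19470, 27916 and 20767 counts in the siAPEX1 libraries, which goes against the label of a silenced gene. A count on APEX1 can be a read of its transcript or of the transfected siRNA, and the part of each was not tested. The study checked the silencing by protein level, which was not analysed here. Each direction below is therefore that of the libraries labelled siAPEX1 against those labelled siCTRL. Nuclear protein-coding genes took 14.996% to 15.7% of the counts in the siCTRL libraries and 13.4% to 14.3% in the siAPEX1 libraries. Of 9 genes fixed as A549 markers 8 were tested, with 5 lower and 1 higher at an adjusted p of at most 0.05. Over all genes tested 15.8% were called lower and 15.9% higher. The summed CPM of the 9 markers ran from 1417 to 1601 in the siCTRL libraries and from 1148 to 1195 in the siAPEX1 libraries. The 5 markers of leukocytes, endothelium, fibroblasts and liver summed to 1.45 to 6.64 CPM and 0.794 to 3.29 CPM, with PECAM1 at 0 in every library and PTPRC, COL3A1 and ALB at 1 count at most. The part of the epithelial marker shift in the results below was not tested. In such bulk RNA, fewer cells with a transcript and less of it per cell cannot be told apart.

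Synthetase transcripts were sparse in these libraries. The 19 cytosolic genes together had 766 to 817 counts per siCTRL library and 442 to 478 per siAPEX1 library, and the 16 mitochondrial genes 96 to 124 and 70 to 90. After the filter on low counts 17 of the 35 members could be tested, 16 cytosolic genes and, of the mitochondrial genes, IARS2 alone. The other 18 members, 3 cytosolic and 15 mitochondrial, were too low for the test, which is 93.8% of the mitochondrial list. Members that passed only through the group in which they were higher would tend to differ, so counts over the tested members describe them alone.

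Per kilobase of the canonical transcript, TARS1, the threonine enzyme, was the most abundant member in the siCTRL libraries, at 14.8 ± 0.999 CPM per kb (SD, n = 4). EPRS1, which joins both glutamate and proline, followed at 11.8 ± 2.30, NARS1 (asparagine) at 11.7 ± 1.11 and GARS1 (glycine) at 11.1 ± 0.298, followed by SARS1 (serine) at 11.002 ± 1.34 CPM per kb. Each of these 4 differed from its neighbour in the order by less than the larger of their SDs. FARSB, the beta subunit of the phenylalanine enzyme, was the lowest cytosolic member at 0.576 ± 0.0727 CPM per kb, while FARSA, its alpha subunit, was at 2.63 ± 0.584. IARS2 was the highest mitochondrial member at 4.13 ± 0.562 CPM per kb, close to IARS1, the cytosolic enzyme for the same amino acid, at 4.12 ± 0.233. AARS2 was the lowest of all members at 0.154 ± 0.0508 CPM per kb. These levels and their order hold for the canonical length, while reads on any annotated exon can count. The annotated exons of IARS1 hold 22418 bases against a canonical 4483, and those of IARS2 4135 against 3530.

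In the libraries labelled siAPEX1, transcripts of 4 cytosolic synthetases fell (WARS1, SARS1, YARS1 and GARS1) and those of LARS1 and IARS2 rose. The other 11 tested members did not pass the threshold, an adjusted p of at most 0.05 in edgeR's quasi-likelihood test over 5368 genes. The 4 lower members are 23.5% of the 17 tested, and 15.8% of all 5368 genes tested and 15.9% of the 4857 nuclear protein-coding genes were called lower. The 2 higher members are 11.8% of the 17, against 15.9% of all genes and 12.4% of the coding genes called higher. With 17 members tested these shares lie near the background. The calls depend on the scaling: with library size alone, which moves the median of all genes from -0.0035 to -0.34 on the log2 scale, 9 members were called lower and 0 higher, with LARS1 at an adjusted p of 0.0539 and IARS2 at 0.0812. With that scaling 1945 of the 5368 genes tested were called lower, in place of 847. Nothing particular to the synthetases is read from the 9 of 17. WARS1 and SARS1 were called lower under each scaling, filter and test that gave them a value and without each library, though SARS1 reached an adjusted p of only 0.0489 in DESeq2.

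WARS1 (ENSG00000140105, GRCh38 chromosome 14 from 100333790 to 100376805, minus strand), the cytosolic tryptophan enzyme, had the largest change of the family. It had 46, 55, 42 and 43 counts in the siCTRL libraries and 12, 4, 5 and 4 counts in the siAPEX1 libraries. Its mean level went from 23.3 ± 2.95 to 4.98 ± 3.27 CPM (SD, n = 4 each), and every siAPEX1 library lay below every siCTRL library. The log2 fold change was -2.22 (standard error 0.269, edgeR adjusted p = 1.02e-08). Only 12 of the 5368 genes tested had a more negative log2 fold change, so that WARS1 ranked 13 from the lowest among all genes and 12 among the coding genes. Of its 6356 exonic bases 672 are shared with genes on the opposite strand, WDR25 and a long non-coding RNA, and the counting column used for strand is not given in the sources used here. WDR25 had 34 counts over all 8 libraries. WARS1 passed the filter on low counts through the siCTRL libraries, with 1 of the siAPEX1 libraries past it, and was not tested where every library had to hold at least 10 counts. Leaving out each library in turn kept the log2 fold change between -2.74 and -2.04.

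SARS1 (ENSG00000031698, chromosome 1 from 109213918 to 109238182, plus strand), the serine enzyme, had 41, 47, 38 and 42 counts in the siCTRL libraries and 16, 16, 16 and 18 in the siAPEX1 libraries. The 4 siAPEX1 libraries were close to one another, at 13.0 ± 1.13 CPM, and all lay below the siCTRL libraries, at 21.1 ± 2.57 CPM. The log2 fold change was -0.69 (standard error 0.198, edgeR adjusted p = 0.00604). No exon of SARS1 is shared with another annotated gene.

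GARS1 (ENSG00000106105, chromosome 7 from 30580533 to 30634033, plus strand), which charges glycine in both compartments, had 54, 56, 56 and 50 counts in the siCTRL libraries and 25, 18, 22 and 30 in the siAPEX1 libraries. The siCTRL libraries were tightly grouped at 27.0 ± 0.727 CPM, the siAPEX1 libraries were spread at 18.7 ± 4.27 CPM, and the groups did not overlap. The log2 fold change was -0.53 (standard error 0.175, edgeR adjusted p = 0.0178). The call was lost without siAPEX1 replicate 2 (adjusted p = 0.103) or replicate 3 (adjusted p = 0.104), and in DESeq2 (adjusted p = 0.0958).

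YARS1 (ENSG00000134684, chromosome 1 from 32775237 to 32818031, minus strand), the tyrosine enzyme, had 35, 31, 25 and 30 counts in the siCTRL libraries and 14, 7, 12 and 16 in the siAPEX1 libraries. In CPM the lowest siCTRL library, at 11.6, lay below the highest siAPEX1 library, at 12.7, so the groups overlapped. The log2 fold change was -0.65 (standard error 0.243, edgeR adjusted p = 0.038). Like WARS1, YARS1 passed the filter on low counts through the siCTRL libraries, the group in which it was higher, with 3 siAPEX1 libraries past it. The call was kept in 8 of 15 alternatives. It was lost without siCTRL replicate 1 (adjusted p = 0.0999), 2 (0.0557) or 4 (0.0759), without siAPEX1 replicate 2 (0.19) or 3 (0.119), in DESeq2 (0.138), and with TMM factors from coding genes alone (0.0536).

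LARS1 (ENSG00000133706, chromosome 5 from 146110566 to 146182696, minus strand), the leucine enzyme, which is also described as a leucine sensor for mTORC1, had 27, 44, 50 and 46 counts in the siCTRL libraries and 36, 45, 59 and 38 in the siAPEX1 libraries. Its raw counts overlapped, and after scaling to the smaller siAPEX1 libraries its level was 20.9 ± 5.16 CPM against 34.7 ± 6.07 CPM, without overlap. The log2 fold change was 0.74 (standard error 0.172, edgeR adjusted p = 0.000778).

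IARS2 (ENSG00000067704, chromosome 1 from 220094132 to 220148041, plus strand), the mitochondrial isoleucine enzyme, had 32, 34, 27 and 24 counts in the siCTRL libraries and 32, 31, 33 and 28 in the siAPEX1 libraries. Here too the raw counts were alike in both groups and the difference arose with the scaling, from 14.6 ± 1.98 to 24.4 ± 1.77 CPM, without overlap. The log2 fold change was 0.74 (standard error 0.182, edgeR adjusted p = 0.00157).

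**Figure D1:**
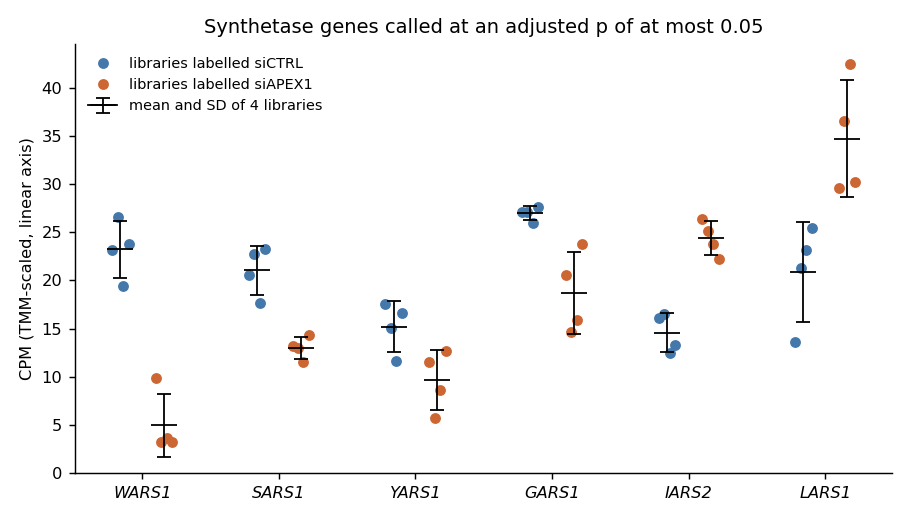
CPM (TMM-scaled, vertical linear axis) of the 6 called synthetase genes in each of the 4 libraries labelled siCTRL (blue) and the 4 labelled siAPEX1 (orange), with the mean and SD of each group in black. WARS1 falls from 23.3 to 4.98 CPM with 1 siAPEX1 library at 9.88, and the groups of YARS1 overlap.

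Without overlap between the groups, WARS1, SARS1 and GARS1 were lower, 17.6% of the 17 tested members, and 14.9% of all genes tested had every siAPEX1 library below every siCTRL library. With a log2 fold change of -1 or lower also required, WARS1 alone was called, against 5.68% of all genes tested.

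Among the cytosolic enzymes that did not pass the threshold, KARS1 (lysine), MARS1 (methionine) and QARS1 (glutamine) had the most negative values. QARS1 had 32 to 53 counts in the siCTRL libraries and 14 to 24 in the siAPEX1 libraries, and its log2 fold change was -0.48 (edgeR adjusted p = 0.0751, 95% interval -0.91 to -0.059). It was called lower in 4 alternatives: without siCTRL replicate 1 (adjusted p = 0.0421) or siAPEX1 replicate 2 (0.0319), with at least 10 counts in every library (0.03) and with library size alone (0.00113). On the same scale KARS1 was at -0.38 (adjusted p = 0.205) and MARS1 at -0.30 (adjusted p = 0.292). KARS1 varied strongly among the siAPEX1 libraries, with 18, 29, 12 and 13 counts, and without replicate 2 it was called lower, at -0.70 on the log2 scale (adjusted p = 0.0241). MARS1 shares 874 exonic bases with genes on the opposite strand, DDIT3 and ARHGAP9, so some of its counts cannot be assigned with certainty.

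TARS1, NARS1, AARS1 (alanine) and EPRS1 were the best measured of the members without a call, and their intervals were the narrowest. The 95% interval of the log2 fold change ran from -0.22 to 0.34 for TARS1, from -0.25 to 0.35 for NARS1, from -0.43 to 0.19 for AARS1 and from -0.40 to 0.13 for EPRS1. EPRS1 had the most reads of any member, 92, 135, 107 and 124 counts in the siCTRL libraries and 61, 66, 74 and 65 in the siAPEX1 libraries. RARS1 (arginine) was at -0.085 (adjusted p = 0.775) and IARS1 at -0.13 (adjusted p = 0.691). IARS1 was uneven in the siAPEX1 libraries, with 28, 12, 18 and 28 counts, and its sign changed when replicate 2 or 3 was left out. HARS1 (histidine) had 5 to 15 counts per library and a wide interval, from -0.62 to 0.73, and CARS1 (cysteine) was at 0.43 (adjusted p = 0.0891), or 0.57 and called higher without siAPEX1 replicate 3 (adjusted p = 0.0408).

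FARSA, FARSB and VARS1 (valine) were not tested. FARSA had 8, 12, 8 and 10 counts in the siCTRL libraries and 4, 5, 3 and 5 in the siAPEX1 libraries. FARSB had 8, 8, 7 and 8 counts in the siCTRL libraries and 5, 14, 10 and 16 in the siAPEX1 libraries. In CPM the groups of both genes overlapped. In the fit of every gene with at least 1 count, FARSB was at 1.08 (standard error 0.345, edgeR adjusted p = 0.0247) and FARSA at -0.59 (adjusted p = 0.53). VARS1 had 7 to 15 and 4 to 8 counts.

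**Figure D2:**
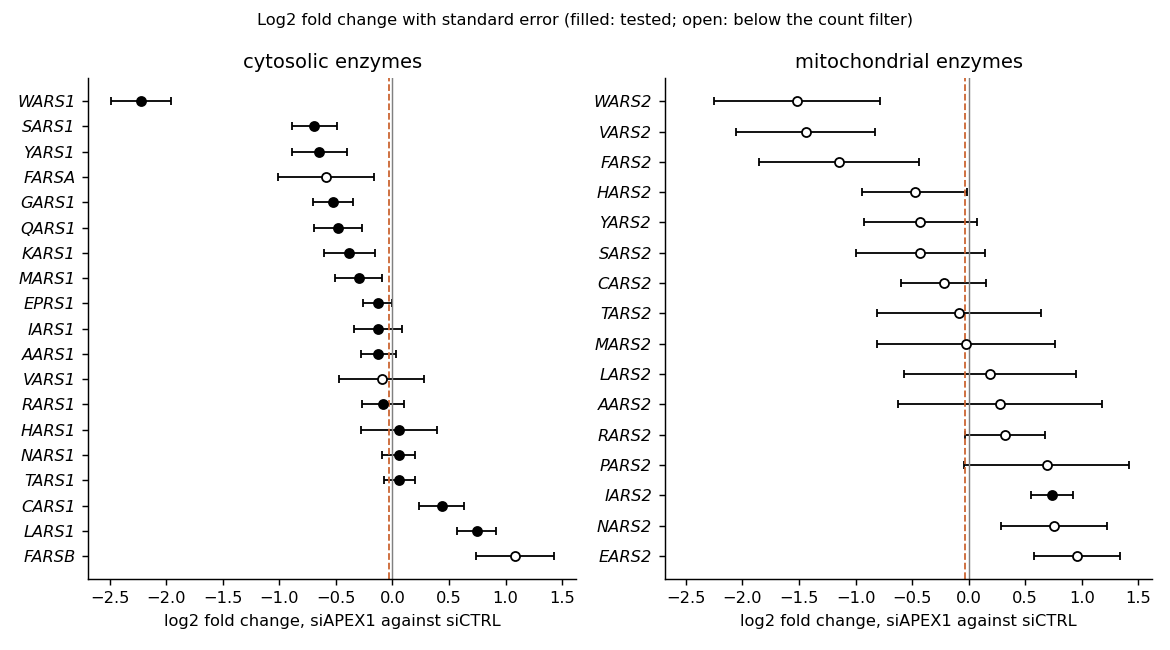
Log2 fold change (horizontal axis, libraries labelled siAPEX1 against siCTRL) with standard error for the 19 cytosolic (left) and 16 mitochondrial (right) synthetase genes. Filled points are the 17 genes tested, open points the 18 below the filter, whose values come from the fit of every gene with at least 1 count, and the dashed line is the median of the coding genes tested, -0.030.

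Over the 16 cytosolic genes tested the median log2 fold change was -0.13, beside -0.030 for the coding genes tested, while IARS2, the only mitochondrial gene tested, was at 0.74. No median of the mitochondrial enzymes can be read from 1 gene. In the fit of every gene with at least 1 count the 19 cytosolic genes had a median of -0.22 with 16 below 0, and the 16 mitochondrial genes a median of -0.055 with 9 below 0, beside -0.13 for the coding genes of that fit. The summed CPM of the cytosolic genes was 385, 389, 379 and 444 in the siCTRL libraries and 382, 359, 322 and 380 in the siAPEX1 libraries, so the groups overlapped (399 ± 30.1 and 361 ± 27.7, SD, n = 4). Without WARS1 the same sums were 376 ± 29.5 and 356 ± 26.3 CPM, an alternative chosen after the data were seen. The summed CPM of the mitochondrial genes was 62.4, 48.4, 44.5 and 58.7 in the siCTRL libraries and 57.6, 72.2, 64.9 and 62.8 in the siAPEX1 libraries, and these groups overlapped too (53.5 ± 8.40 and 64.4 ± 6.06).

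**Figure D3:**
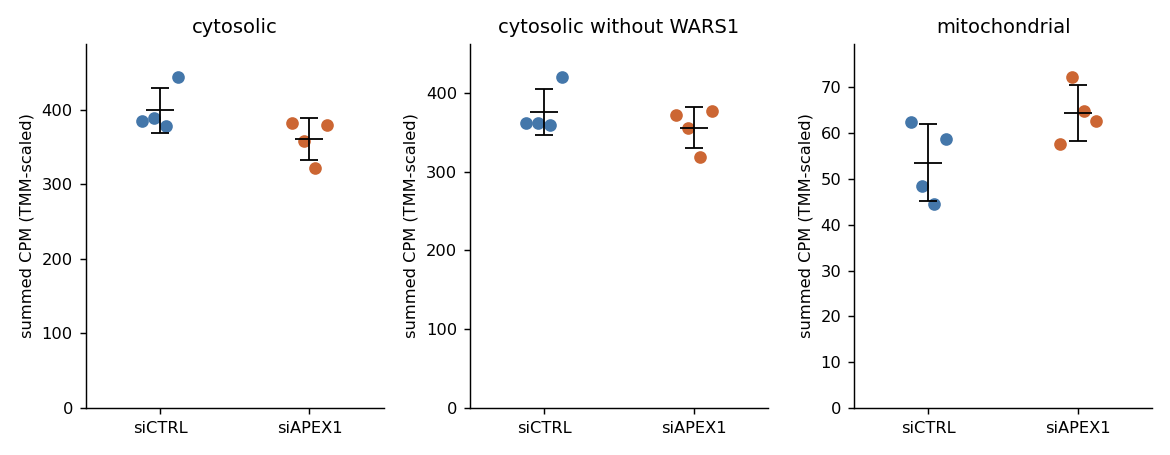
Summed CPM (TMM-scaled, vertical linear axes from 0) of the cytosolic synthetase genes, of the same without WARS1, and of the mitochondrial synthetase genes, with 1 point per library and the mean and SD of the 4 libraries of each group in black. In each panel the siCTRL (blue) and siAPEX1 (orange) libraries overlap.

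In the ratio of a cytosolic enzyme to the mitochondrial enzyme for the same amino acid the scaling cancels, apart from its part in the prior count. IARS1 and IARS2 were the only such pair with both genes past the filter. The log2 ratio of IARS1 to IARS2 was 0.27, 0.19, 0.42 and 0.43 in the siCTRL libraries and -0.18, -1.27, -0.82 and 0 in the siAPEX1 libraries. Every siAPEX1 library lay below every siCTRL library. The ratio was lower by a difference of -0.89 on the log2 scale (two-sided exact permutation test, 4 against 4 libraries, p = 0.0286 for 1 pair, the smallest p that 70 labelings allow). With a prior count of 0.5 in place of 2 the difference was -0.94, and with a prior count of 5 it was -0.81. Leaving out siCTRL replicate 1 or 2 gave an exact permutation p of 0.0571 and leaving out replicate 3 or 4 one of 0.0857, with differences from -0.94 to -0.86. Without siAPEX1 replicate 2 the difference was -0.66 and without replicate 4 it was -1.08, both at an exact permutation p of 0.0286.

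The 15 mitochondrial genes below the filter had 0 to 18 counts in any library. EARS2 (glutamate) had 5, 4, 5 and 13 counts in the siCTRL libraries and 7, 14, 7 and 8 in the siAPEX1 libraries, and RARS2 (arginine) 8, 11, 8 and 13 and 6, 8, 8 and 12. VARS2 (valine) had 6, 9, 3 and 7 counts in the siCTRL libraries and 0, 2, 4 and 0 in the siAPEX1 libraries. WARS2, the mitochondrial partner of WARS1, had 6, 1, 5 and 6 and then 0, 2, 1 and 1 counts. At this depth no difference was detectable in the fit of every gene: the adjusted p was 0.108 for EARS2, 0.151 for VARS2 and 0.247 for WARS2. VARS2 and SARS2 share 4073 of 6467 and 1492 of 3098 exonic bases with another gene on the same strand, so their counts are uncertain. CARS2, FARS2, HARS2, LARS2, MARS2, NARS2, PARS2, TARS2, YARS2 and AARS2 complete the list, and of these CARS2 reached the 18 counts, in siCTRL replicate 1.

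**Figure D4:**
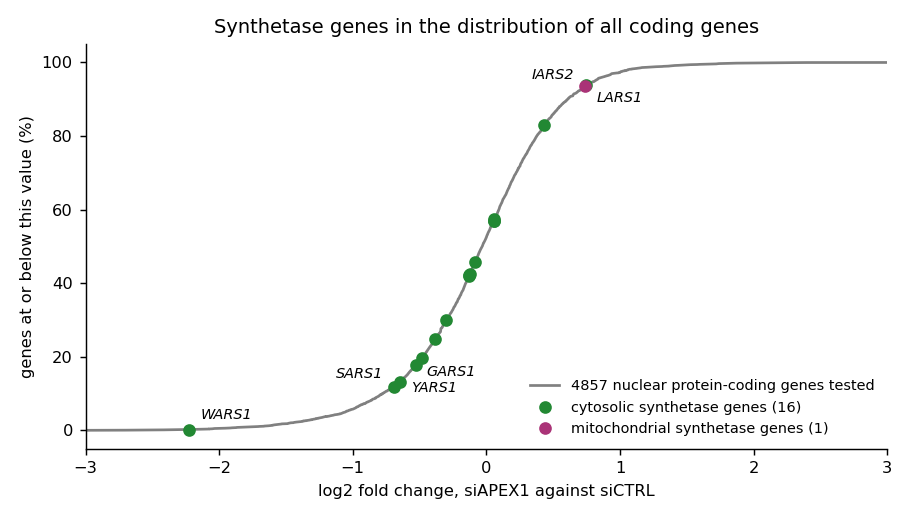
Cumulative share of the 4857 nuclear protein-coding genes tested (vertical axis, %) by log2 fold change (horizontal axis, siAPEX1 against siCTRL), with the 16 cytosolic (green) and 1 mitochondrial (purple) synthetase genes on the curve. WARS1 at -2.22 lies in the lower tail and the other 16 members lie between -0.69 and 0.74.

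The 4 lower synthetase genes all belong to the list of 11 ATF4-responsive synthetases, whose other 7 members did not pass the test, beside 15.8% of all genes tested called lower. Nothing particular to the list is read from this count. The median of the 11 was -0.13, the same as over all 16 cytosolic genes tested. Of the 5 tested cytosolic genes outside that list, LARS1 rose and the other 4 did not pass. Of the 7 cytosolic genes with the printed promoter letters, GARS1 fell and the other 6 had log2 fold changes from -0.30 (MARS1) to 0.43 (CARS1) without a call. WARS1 and SARS1 had no match in their windows, and YARS1 had no entry.

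All 7 synthetase genes listed for the multisynthetase complex were tested (EPRS1, IARS1, LARS1, QARS1, MARS1, RARS1 and KARS1). LARS1 rose, the other 6 did not pass the test, and the median was -0.13. Of all genes tested 15.9% were called higher and 15.8% lower, so nothing particular to the complex is read from this count. From the list of scaffolds, AIMP1, a scaffold protein of the complex, fell with 31, 35, 37 and 36 counts in the siCTRL libraries and 10, 11, 17 and 18 in the siAPEX1 libraries (log2 fold change -0.65, standard error 0.22, edgeR adjusted p = 0.0194). The scaffold AIMP2 was at -0.53 (adjusted p = 0.229), while EEF1E1, the third scaffold, was below the filter. AIMP2 passed the filter through the siCTRL libraries, with 0 of the siAPEX1 libraries past it.

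Of the genes for tRNA export, editing and deacylation, 3 of 6 were tested, beside 15.8% of all genes tested called lower. XPOT, the nuclear exporter of tRNA, fell (log2 fold change -0.63, standard error 0.215, edgeR adjusted p = 0.0225). In CPM its lowest siCTRL library, at 15.1, lay below its highest siAPEX1 library, at 16.2, so the groups overlapped. DTD1, a D-aminoacyl-tRNA deacylase, was at -0.60 (adjusted p = 0.158) and PTRH2, a peptidyl-tRNA hydrolase, at -0.034. Both DTD1 and PTRH2 passed the filter through the siCTRL libraries. Of the 4 genes of the mitochondrial amidotransferase and formyltransferase, which complete certain mitochondrial aminoacyl-tRNAs, GATC alone was tested, with an adjusted p of 0.995. The counts on mitochondrial tRNAs, the substrates of the mitochondrial enzymes, differed widely in these libraries. MT-TP had 98609 to 146124 counts per library, while MT-TN and MT-TK had 0 in every library. MT-TA (0 to 2 counts), MT-TQ (0 to 4) and MT-TW (2 to 11) were also below the filter. Of the 22 mitochondrial tRNA genes 17 were tested, 13 rose and the other 4 did not pass, with a median log2 fold change of 0.73, beside 15.9% of all genes tested called higher. Of the 13, MT-TP alone, at 0.35 (edgeR adjusted p = 0.000415), lost its call in the fit of every gene with at least 1 count (adjusted p = 0.0744). Library size alone moved the median of all genes tested from -0.0035 to -0.34, and its effect on these 13 calls is not reported here.

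The amino acid response, with which the ATF4-responsive synthetases are often induced, held calls in both directions: of its 25 listed genes 19 were tested, 6 fell, 4 rose and 9 did not pass, beside 15.8% of all genes tested called lower and 15.9% called higher. The lower genes were ATF5, a transcription factor (-2.59, edgeR adjusted p = 2.27e-05), the serine, glycine and one-carbon enzymes PHGDH (-1.90), SHMT2 (-0.95) and MTHFD2 (-0.55), the proline enzyme PYCR1 (-1.27) and the secreted glycoprotein STC2 (-0.58). The higher genes were SESN2, a leucine-binding regulator of mTORC1 (2.21, edgeR adjusted p = 1.42e-06), the leucine transporter SLC7A5 (1.02), the transcription factor CEBPB (0.76) and the mTORC1 inhibitor DDIT4 (0.66). ATF5, PHGDH and SHMT2 passed the filter through the siCTRL libraries and SESN2 through the siAPEX1 libraries, so they passed through the group in which they were higher. ATF4 itself was at -0.23 (adjusted p = 0.233) and DDIT3 at 0.34 (adjusted p = 0.159). ASNS, asparagine synthetase, had 0 to 3 counts per library, so no fold change is given. The median of the 19 was -0.11.

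**Figure D5:**
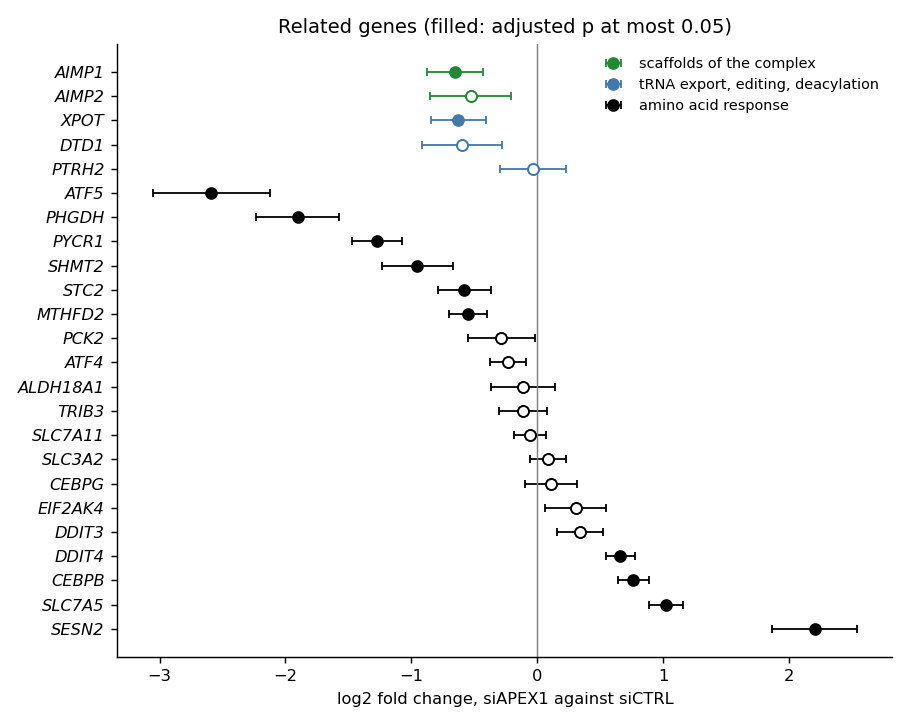
Log2 fold change with standard error (horizontal axis, siAPEX1 against siCTRL) of the tested genes for scaffolds of the complex (green), tRNA export, editing and deacylation (blue) and the amino acid response (black), with filled points for an adjusted p of at most 0.05. The amino acid response runs from -2.59 (ATF5) to 2.21 (SESN2).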

How the data were processed

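RNA-seq of 8 A549 libraries, 4 labelled siCTRL and 4 labelled siAPEX1, was analysed. The authors trimmed the reads with cutadapt, aligned them to GRCh38 with STAR 2.5.3a and deposited the raw counts per Ensembl gene, without normalization; the annotation release and the strand column counted are not given in the sources used here. Groups and replicate numbers came from the sample labels. Identifiers were matched to GENCODE 44 (57532 of 58302).

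Counts were tested with edgeR 4.0.16 in R 4.3.3 (TMM factors, filterByExpr set to at least 10 counts and a total of at least 15, quasi-likelihood test, Benjamini-Hochberg adjustment over 5368 genes). CPM are counts per 1000000 of the TMM-scaled library, and log2 ratios used a prior count of 2. The standard error is the log2 fold change divided by the square root of F. Total counts ran from 1348386 to 1949886 per library, and the common biological coefficient of variation was 0.0832. Replicate libraries differed by more than sampling noise, with a chi-square per degree of freedom of 1.67 to 2.97. The scripts were tested on simulated data.

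The members and gene lists were chosen with earlier results of these data known. All members are accounted for, with full values for those called at an adjusted p of at most 0.05. Alternatives were other scalings, filters and thresholds, DESeq2 1.42.0, a replicate block, and each library left out. Some items of the fixed lists are not reported here. Promoter letters were searched in RefSeq windows.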

Additional observations from a re-analysis of the deposited data

Results flagged for a closer look

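In 1 library labelled siAPEX1, replicate 1, WARS1 stood apart from the other 3 of its group, at 9.88 CPM (12 counts) against 3.18 to 3.60 CPM (4 or 5 counts). The gap to the nearest of the others was larger than Dixon's 95% limit for 4 values, and chance passes that limit in about 1 of 20 groups. The library still lay below every siCTRL library, which ran from 19.5 to 26.6 CPM. Its cause was not tested.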

How the results depend on the processing

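Of the 17 tested members, WARS1 and SARS1 kept their direction and call under each scaling, filter and test run on them, in the replicate block and without each library, except that WARS1 was not tested where every library had to hold at least 10 counts. With library size alone, 9 members were lower and 0 higher, beside 1945 of all 5368 genes tested called lower. The cytosolic median was then -0.47, and IARS2, the only mitochondrial gene tested, was at 0.39. DESeq2 called 2 lower and 2 higher, beside 1123 of all 5368 genes tested called, 541 of them lower. Requiring a change of 1 or of 0.75 on the log2 scale left 1 lower and 0 higher. At a change of 1, 5.68% of all genes tested were called lower. With every gene of at least 1 count, the mitochondrial median was -0.055 and the difference of the medians (cytosolic minus mitochondrial) -0.17, since 16 mitochondrial genes then entered in place of 1. Leaving out each library in turn gave 2 to 4 lower members (2 without siAPEX1 replicate 3) and 2 to 3 higher. Over all genes these fits called 1516 to 1659 of 5528 to 5927 genes, with 722 to 828 called lower. The cytosolic medians ran from -0.18 to -0.084. The mitochondrial medians, each of only 1 or 2 genes, ran from 0.19 to 0.78, and the differences from -0.94 to -0.37. The mitochondrial median was lowest where a second mitochondrial gene passed the filter, without siCTRL replicate 3 (0.19) or replicate 2 (0.23) or siAPEX1 replicate 4 (0.28), replicate 1 (0.35) or replicate 2 (0.49). Leaving WARS1 out of the cytosolic sum, chosen after the data were seen, moved its log2 ratio from -0.15 to -0.080.

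Members without a call changed sign as follows, and the cause was not tested. With library size alone HARS1 was at -0.28, NARS1 at -0.29 and TARS1 at -0.28, and with every gene of at least 1 count at -0.040, -0.040 and -0.034. With at least 10 counts in every library NARS1 was at -0.033 and TARS1 at -0.027. With 1 library left out, HARS1 ran from -0.14 to 0.28, IARS1 from -0.28 to 0.079, NARS1 from -0.0086 to 0.20 and RARS1 from -0.17 to 0.081. Without siAPEX1 replicate 3 CARS1 was called higher, at 0.57.

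The labels number the replicates 1 to 4 in both groups, but same-numbered libraries did not deviate together (correlations of -0.037 to -0.0035). These values show no sign of a pairing by number. They cannot exclude one, since sampling noise at low counts also lowers such correlations. With the replicate block 4 members were lower and 2 higher, and 1595 genes were called in place of 1703. The cytosolic median was -0.13, and IARS2 alone was at 0.74.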

Other observations

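WARS1 lies on the long arm of chromosome 14 beside the imprinted miRNA cluster, and its tested neighbours were read after its value had been seen. YY1, the nearest tested protein-coding gene, was at -0.065 on the log2 scale (edgeR adjusted p = 0.785). The non-coding RNA genes MIR345 (-0.45, adjusted p = 0.367), MIR342 (-0.28, adjusted p = 0.0409), MEG3 (-0.61, adjusted p = 0.0159) and MIR337 (-1.26, adjusted p = 3.23e-05) had smaller changes than WARS1.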
